A study of Mus musculus with 5 samples.

Results

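The 7 genes described here are a chosen set from the MHC class II pathway, with transcripts counted in sorted cells of the adult mouse retina. They are *Cd74*, *H2-Aa*, *H2-Ab1*, *H2-Eb1*, *H2-DMa*, *H2-DMb1* and *Ciita*, chosen by symbol from the 33696 genes of the count tables. MHC class II molecules are pairs of an α and a β chain that show peptides from ingested material to CD4+ T cells. *H2-Aa* and *H2-Ab1* encode the pair of the H2-A molecule, *H2-Eb1* encodes the β chain of H2-E, and *Cd74* encodes the invariant chain that escorts the pairs and blocks their groove. *H2-DMa* and *H2-DMb1* encode the H2-DM molecule that exchanges the remnant of the invariant chain for a peptide, and *Ciita* encodes the transactivator that switches the pathway on, constitutively in antigen-presenting cells and after interferon-γ in many other cells. In the retina the class is known mainly from macrophages, activated microglia and dendritic cells.

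The study delivered a constitutively active YAP to MGs, the principal glia of the retina, and sequenced sorted cells one by one. All mice were *Glast-CreERT2; Rosa26-Ai65* on C57BL/6J, aged 12 to 20 weeks, males and females pooled, and all were given tamoxifen. One group carried ShH10-GFAP-Yap5SA (*Yap5SA* AAV, 21 pooled retinas) and the control group ShH10-GFAP-mKate2 (*mKate2* AAV, 16 pooled retinas), and cells were taken 56 days after injection. Both vectors also carry FlpO, so tdTomato marks cells in which Cre and FlpO have both acted. A *Gfap* promoter drives the transgene, which restricts its expression largely to cells that use that promoter. The cells sequenced were not limited to these.

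There were 5 deposited libraries, of which 4 were used: mKate2 1, mKate2 2, Yap5SA 1 and Yap5SA 3. Yap5SA 2 shared 1361 cell barcodes with Yap5SA 1, 99.78% of the smaller library, and was left out as a second reading of the same cells, while no other pair shared more than 0.2183%. The 4 libraries held 1407 to 7729 barcodes and 13132765 to 50938304 UMIs (unique molecules counted), so mKate2 2 was the deepest in total, and Yap5SA 1 the deepest per MG (median 10772 UMIs). The label names FACS-purified MGs, yet the libraries held many other cells. MGs, cells with at least 0.5% of UMIs from *Glul*, *Rlbp1*, *Slc1a3*, *Clu* and *Aqp4*, numbered 1496, 2863, 801 and 1341 in mKate2 1, mKate2 2, Yap5SA 1 and Yap5SA 3, which is the order of every series of 4 values that follows. Myeloid cells, with at least 0.3% of UMIs from *Ctss*, *C1qa*, *C1qb*, *C1qc*, *Tyrobp* and *Fcer1g*, numbered 27, 923, 139 and 64. A further 10 myeloid genes that the limit did not use summed to 6375 to 8737 CPM in these cells and to 2.454 to 28.43 CPM in MGs. CPM is the UMI count of a gene scaled to the total UMIs of the class in that library, and all levels below are on this scale. Rods were frequent only in mKate2 2 (546 cells) and Yap5SA 3 (522 cells). tdTomato itself was counted in 2 libraries, and a UMI of it was present in 45.05% and 65.04% of MGs and in 3.704% and 3.597% of myeloid cells of mKate2 1 and Yap5SA 1. Each library came from pooled retinas, so every p-value below measures the spread between libraries, which may be technical.

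The H2 genes lie together on chromosome 17 and *Ciita* on chromosome 16 (GRCm39). *H2-DMa* (34338515 to 34358958), *H2-DMb1* (34372046 to 34379204), *H2-Ab1* (34476663 to 34488393) and *H2-Eb1* (34504236 to 34535648) are on the plus strand and *H2-Aa* (34493404 to 34506798) on the minus strand, and *Ciita* spans 10297923 to 10347694 on the plus strand. Class II promoters are known for an X box and a Y box close to the start site, where the factors that recruit CIITA assemble. The 120 bases before the annotated start are shown for 3 chain genes that were abundant here and for *H2-Ea*, the partner of *H2-Eb1*, whose promoter is deleted in the b haplotype that C57BL/6J carries. Capitals mark ACNGATG, letters found at the X box, and ATTGG or its complement CCAAT, letters found at the Y box. The sequences are from GRCm39, before the start of the canonical GENCODE transcript, written in the direction of transcription.
H2-Ab1, chr17:34482063-34482182, plus strand: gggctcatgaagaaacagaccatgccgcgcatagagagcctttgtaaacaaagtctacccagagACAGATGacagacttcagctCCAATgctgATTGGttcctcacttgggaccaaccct
H2-Eb1, chr17:34524693-34524812, plus strand: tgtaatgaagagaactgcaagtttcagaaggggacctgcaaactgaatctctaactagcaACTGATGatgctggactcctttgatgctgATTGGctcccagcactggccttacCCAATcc
H2-Aa, chr17:34506798-34506917, minus strand: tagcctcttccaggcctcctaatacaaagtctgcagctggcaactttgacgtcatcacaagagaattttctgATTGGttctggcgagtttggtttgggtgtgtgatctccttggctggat
H2-Ea, chr17:34563619-34563738, minus strand: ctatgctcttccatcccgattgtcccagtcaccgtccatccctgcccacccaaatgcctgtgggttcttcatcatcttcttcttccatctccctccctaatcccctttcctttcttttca

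The *H2-Ab1* and *H2-Eb1* windows each held ACNGATG followed by ATTGG within 40 bases, an arrangement present in 0.138% of 21757 such windows of protein-coding genes (30 windows). These windows include those of the class II genes, and the letters were chosen with such sequences known. The rate is therefore a description and no test. The *H2-DMa* window, not shown, also held the arrangement, and those of *H2-DMb1* and *Ciita* held neither motif. ACNGATG alone, on either strand, was in 3.19% and ATTGG alone in 24.3%. The *H2-Aa* window held ATTGG only, and the *H2-Ea* window held neither, which says no more than that these letters are not in these bases. The *H2-Ab1* and *H2-Ea* windows overlap no annotated exon. The *H2-Aa* window includes 1 exonic base, and the *H2-Eb1* window overlaps 5 annotated exon entries, whose gene and strand were not recorded. No *H2-Ea* UMI was counted in myeloid cells of mKate2 1, mKate2 2 or Yap5SA 3, where 3 UMIs would have been 7.501, 0.5424 and 5.704 CPM, and 1 was counted in Yap5SA 1. In MGs *H2-Ea* was at 0 UMIs in all 4 libraries, against a level for 3 UMIs of 0.1637 to 0.383 CPM. *H2-Eb1*, the β chain that would pair with it, was by contrast among the abundant transcripts of the myeloid cells.

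The 7 genes were concentrated in myeloid cells. Together they made up 3.682%, 3.32%, 4.494% and 2.111% of all myeloid UMIs, and single cells ranged from 0 class II UMIs to 3390. Since the assay counts 1 transcript end per molecule, no correction for length was made. *Cd74* stood at 17491, 17219, 21160 and 10386 (mean 16564 ± 4494 SD, n = 4 libraries). The H2-A and H2-E chains followed at about the same height. *H2-Aa* was at 6606, 5597, 7678 and 3637 (5880 ± 1719), *H2-Eb1* at 6451, 4804, 8317 and 3312 (5721 ± 2154) and *H2-Ab1* at 5315, 4867, 6734 and 3221 (5034 ± 1447). Their ranges overlapped, so the order among these 3 chains is not resolved, and Yap5SA 1 was highest and Yap5SA 3 lowest for each of them and for *Cd74*. The peptide loaders were lower, *H2-DMa* at 432.5, 379, 557 and 351.8 (430.1 ± 91.05) and *H2-DMb1* at 487.5, 317.7, 404.8 and 195.8 (351.5 ± 124.8), again overlapping each other. *Ciita* was lowest and most uneven, at 40.0, 15.01, 91.97 and 3.803 (37.7 ± 39.22). Within each library the order was *Cd74*, then the chains, then the loaders, then *Ciita*.

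In MGs the same genes were low and split the libraries in 2 pairs that cross the AAV groups. *Cd74* was at 1.439, 84.64, 77.81 and 2.936 CPM, from 17, 1551, 744 and 23 UMIs. *H2-Ab1* was at 1.608, 51.57, 80.84 and 2.17, *H2-Aa* at 0.5078, 26.2, 28.87 and 0.383 and *H2-Eb1* at 1.1, 25.1, 29.07 and 0.5106. For these 4 genes mKate2 2 and Yap5SA 1 were high and mKate2 1 and Yap5SA 3 low, with a wide gap and no library in between. *H2-DMa* varied less, at 6.432, 12.66, 21.75 and 7.149 (12.0 ± 7.073 SD, n = 4), and *H2-DMb1* was at 1.523, 9.223, 15.27 and 2.681. *Ciita* reached 11 UMIs in mKate2 2 and 27 in Yap5SA 1, against 0 in mKate2 1 and 3 in Yap5SA 3. The make-up of the class II signal changed with its height. *H2-DMa* supplied 51.01% and 44.09% of the 7 genes' UMIs in MGs of the low libraries mKate2 1 and Yap5SA 3, but 6.029% and 8.483% in the high ones, while it was 1.141% to 1.667% in myeloid cells.

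**Figure D1:**
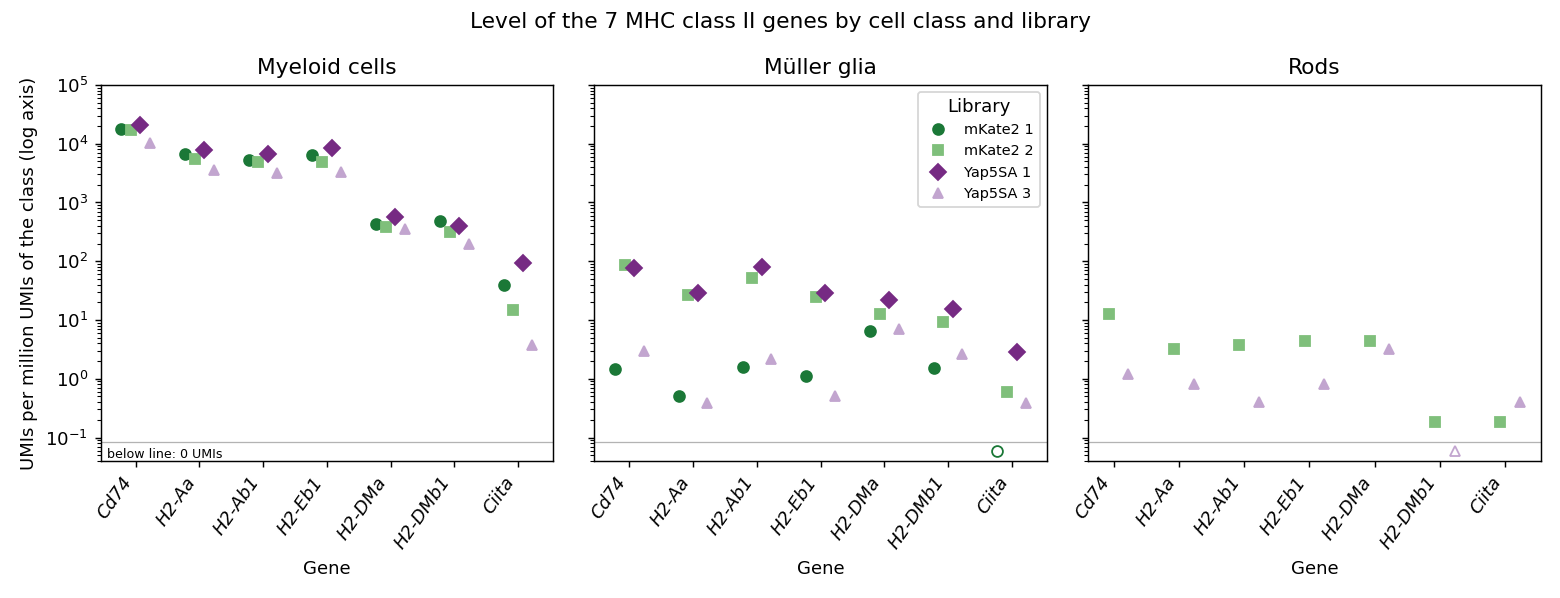
CPM (log axis) for each of the 7 genes in myeloid cells, MGs and rods, with 1 point per library and open points below the line for 0 UMIs. The *Cd74* points span 10386 to 21160 in myeloid cells and separate into 84.64 and 77.81 against 1.439 and 2.936 in MGs, and *Ciita* is spread in both, from 3.803 to 91.97 in myeloid cells.

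Across all genes tested with edgeR's quasi-likelihood test on summed counts, 14393 in myeloid cells against MGs of the same 4 libraries, 48.9% passed an adjusted p of 0.05 and 20.7% were higher in myeloid cells. Each of the 7 genes passed and was higher in myeloid cells in 4 of 4 libraries, without overlap between the classes, which 53.3% of all genes also showed. Log2 fold changes were 10.48 ± 1.035 (SE, adjusted p = 3.366e-06) for *Cd74*, 10.53 ± 1.076 (4.476e-06) for *H2-Aa*, 9.02 ± 0.951 (5.901e-06) for *H2-Ab1* and 10.28 ± 0.951 (1.917e-06) for *H2-Eb1*. The loaders and the transactivator differed less, *H2-DMa* by 5.71 ± 0.343 (5.464e-08), *H2-DMb1* by 6.36 ± 0.534 (8.351e-07) and *Ciita* by 5.74 ± 0.674 (1.499e-05). *Ciita* was too low in MGs to be tested between AAVs there. It passed the count filter of the present fit through its myeloid counts, so its call was favoured by that selection. The median over all genes tested was -0.267.

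Of 23 other genes of the pathway, 21 could be tested, and 15 of these were higher in myeloid cells and 1 was lower, with a median log2 fold change of 3.277. *Spi1*, the transcription factor of the myeloid lineage, differed by 10.62 and *Cd86*, a costimulatory ligand for T cells, by 9.77. *H2-DMb2*, a second β chain of H2-DM, differed by 8.20 and *Ifi30*, a lysosomal thiol reductase that unfolds antigens, by 5.34. Factors of the promoter boxes were mixed. *Rfx5*, *Rfxap* and *Rfxank*, which bind the X box, gave 0.19, 0.53 and -0.20 and did not pass (adjusted p = 0.7687, 0.1979 and 0.7027), and *Nfyb*, of the complex that binds the Y box, fell by 1.32 (adjusted p = 0.004184), while *Nfya* of the same complex was higher by 1.91 (adjusted p = 0.0003856).

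Myeloid cells were themselves of several kinds, and class II differed strongly between them. Cells were assigned to the marker list with the most UMIs, without any of the 7 genes and without a minimum count. Cells in which no single list led (2, 102, 12 and 4) were not assigned. Of the 8 border macrophage genes listed next, 4 had enough counts to be tested between the kinds. Homeostatic microglia genes (*P2ry12*, *Tmem119*, *Siglech*, *Gpr34*, *Sall1*, *P2ry13*, *Olfml3*) led in 9, 424, 33 and 32 cells and genes of border macrophages (*Mrc1*, *Pf4*, *F13a1*, *Ms4a7*, *Cd163*, *Lyve1*, *Cbr2*, *Cd209f*) in 12, 382, 84 and 28 cells. In the border macrophage-marked cells the 7 genes together reached 48473, 56189, 50073 and 37539 CPM, and in the microglia-marked cells 490.3, 12911, 15862 and 6628. The values of the kinds did not overlap, and the 9 microglia-marked cells of mKate2 1 were lowest, at 0 UMIs of *H2-Aa*, *H2-Eb1* and *Ciita*. Their median depth was 2628 UMIs, against 18024 in the 12 border macrophage-marked cells of that library. At least 1% of UMIs came from the 7 genes in 91.67%, 80.63%, 90.48% and 64.29% of border macrophage-marked cells, but in 0%, 25.24%, 36.36% and 18.75% of microglia-marked cells.

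The test used the 3 libraries with at least 10 cells of each kind (mKate2 2, Yap5SA 1 and Yap5SA 3), and 3.73% of 7378 genes passed, 2.41% as higher and 1.31% as lower in the border macrophage-marked cells. Of the 7 genes 5 passed, all higher in 3 of 3 libraries. *Cd74* was at 29284, 23387 and 18291 CPM against 6841, 8519 and 3242, a log2 fold change of 2.15 ± 0.163 (SE, adjusted p = 1.185e-05). *H2-Aa* was at 9483, 8696 and 6671 against 2063, 2309 and 945.1 (2.43 ± 0.171, adjusted p = 5.465e-06), and *H2-Eb1* at 8171, 9403 and 6114 against 1754, 2301 and 945.1 (2.44 ± 0.154, adjusted p = 3.338e-06). *H2-Ab1* was at 8297, 7639 and 5756 against 1781, 2105 and 1077 (2.29 ± 0.148, adjusted p = 3.338e-06). None of these 4 genes overlapped between the kinds, which 11.5% of all tested genes also did not.

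The loaders and the transactivator differed less between the 2 kinds of myeloid cell. *H2-DMb1*, at 470.4, 390.7 and 282.6 against 181, 213 and 124, gave 1.28 ± 0.222 (adjusted p = 0.005132), a call that was lost without mKate2 2 (1.13, adjusted p = 0.09598). *H2-DMa*, at 465.6, 481.6 and 415.6 against 284.5, 339.1 and 294.4, gave 0.71 ± 0.2 and did not pass (adjusted p = 0.07764). *Ciita*, at 18.24, 75.75 and 8.312 against 6.135, 75.67 and 0, gave 0.93 ± 0.45 (adjusted p = 0.4129), and in Yap5SA 1 it was equally high in both kinds. In the libraries tested, median depth was similar in both kinds, 4138, 14776 and 5776 UMIs against 4354, 11604 and 5012. Of 18 other genes of the class II pathway 1 was higher (*H2-DMb2*, 1.90, adjusted p = 0.02243) and 1 lower (*Ctsl*, a lysosomal protease, -1.08, adjusted p = 0.004183), with a median of -0.108. None of 10 MHC class I genes and none of 18 interferon-γ response genes passed, with medians of 0.047 and -0.303. Cells led by monocyte and dendritic cell genes were few (4, 15, 10 and 0), and in them the 7 genes stood at 43362, 38299 and 51330 CPM in mKate2 1, mKate2 2 and Yap5SA 1.

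**Figure D2:**
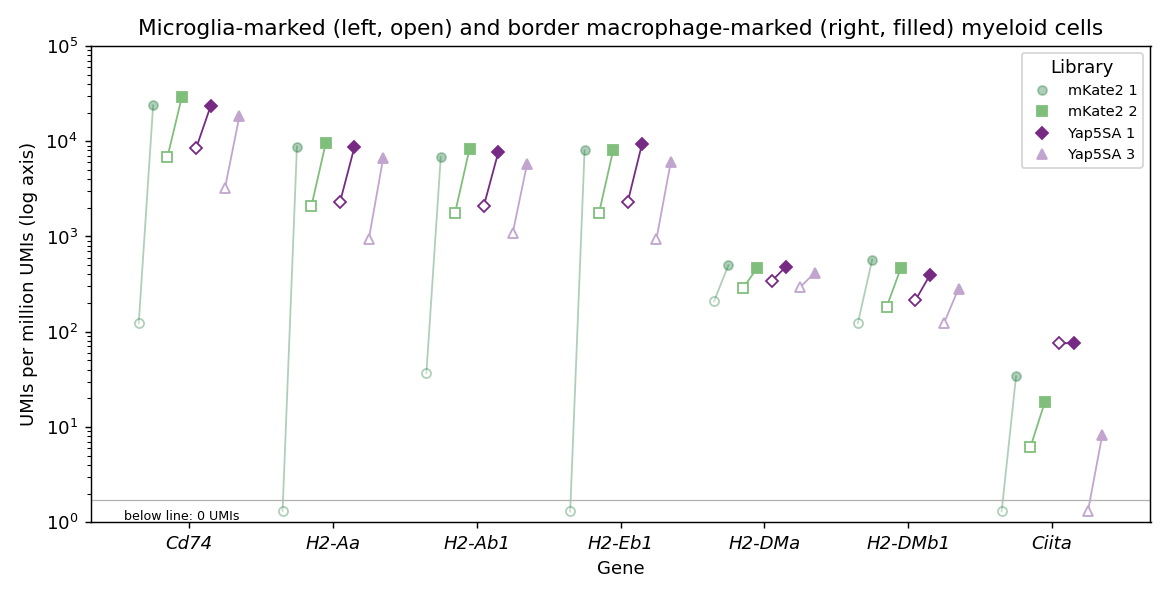
CPM (log axis) of the 7 genes in microglia-marked cells (left, open) and border macrophage-marked cells (right, filled), with a line joining the pair of each library and faint symbols for mKate2 1, which had 9 microglia-marked cells and was not tested. *Cd74* rose from 6841, 8519 and 3242 to 29284, 23387 and 18291, and *H2-DMa*, whose lines are less steep, went from 284.5, 339.1 and 294.4 to 465.6, 481.6 and 415.6.

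Among all genes measured in myeloid cells, those whose counts most resembled the summed class II count were *Lyz2*, *Plbd1*, *Ms4a7*, *Acp5* and *Apoe*. Pearson's r over single cells, averaged over mKate2 2, Yap5SA 1 and Yap5SA 3 (760, 123 and 53 cells, each thinned to 2000 UMIs), was 0.517, 0.416, 0.377, 0.374 and 0.368 among 2858 genes ranked. Cells of a library share their capture and sequencing, so these values are a description only. *Lyz2*, lysozyme of macrophages and monocytes, gave 0.544, 0.478 and 0.529 in the 3 libraries. *Ms4a7* is itself on the border macrophage list, of which *Mrc1* (0.218) and *Pf4* (0.218) were also positive. Others of that list were slightly negative, *F13a1* (-0.045), *Cd163* (-0.015), *Lyve1* (-0.070) and *Cbr2* (-0.009). At the other end of the ranking were *Sparc* (-0.432) and *Ctsd* (-0.397), and the microglia gene *P2ry12* (-0.285). Of the 7 genes the 3 chains and *Cd74* each correlated with the sum that contains them at 0.931 to 0.985, against 0.473 for *H2-DMa*, 0.536 for *H2-DMb1* and 0.0647 for *Ciita*.

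Whether the low MG signal exceeded that of neurons was examined against rods, which are not known to express class II. Only mKate2 2 and Yap5SA 3 had enough rods. There the 7 genes together stood at 28.63 and 6.887 CPM in rods (158 and 17 UMIs) against 210 and 16.21 in MGs (3848 and 127 UMIs). The other neurons of mKate2 2 were at 62.06 (bipolar cells), 24.15 (amacrine cells) and 15.98 (cones), all below its MGs. A single bipolar cell held 320 of the 489 class II UMIs of its class, and without it the bipolar level was 21.59. In Yap5SA 3 bipolar cells and cones were at 6.222 and 4.569, and its 25 amacrine cells at 28.0, above its MGs. For shares at equal depth, cells were thinned to 2000 UMIs and shallower cells were left out. Left out were 868 of 2863 MGs and 22 of 546 rods in mKate2 2. In Yap5SA 3 they were 411 of 1341 MGs and 84 of 522 rods. Of the cells kept, 19.5% of MGs and 4.962% of rods (26 of 524) had a class II UMI in mKate2 2. In Yap5SA 3 these shares were 2.796% of MGs and 1.37% of rods (6 of 438). A *Cd74* UMI was found in 7.368% (95% interval 6.26% to 8.604%) of thinned MGs and 1.718% (0.7883% to 3.235%) of rods in mKate2 2. In Yap5SA 3 a *Cd74* UMI was found in 0.3226% of MGs and 0.4566% of rods, so that *Cd74* in its MGs was not above its rods at this depth. Unthinned, a *Cd74* UMI was in 12.43% of MGs and 10.26% of rods of mKate2 2, at median depths of 2898 and 9286 UMIs, and in 1.641% and 0.5747% in Yap5SA 3, at 2920 and 3832. Intervals are exact binomial and cover counting error only. Only called cells were in the tables, so free RNA was not measured directly.

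The fit of MGs over rods in these 2 libraries called 58.8% of 14525 genes, 34.1% as higher in MGs, around a median of 0.123. Of the 7 genes 6 could be tested and all 6 passed as higher in MGs. *Cd74* gave a log2 fold change of 2.79 ± 0.389 (SE, adjusted p = 9.462e-05) and *H2-Ab1* 3.89 ± 0.458 (2.499e-05), higher in 2 of 2 libraries. *H2-Aa* (2.83 ± 0.693, 0.004548) and *H2-Eb1* (2.42 ± 0.626, 0.006262) were higher in mKate2 2 but not in Yap5SA 3, where 3 and 4 MG UMIs faced 2 and 2 rod UMIs. *H2-DMa* gave 1.54 ± 0.458 (0.01316). *H2-DMb1* was at 9.223 (95% Poisson interval 7.885 to 10.72) against 0.1812 (0.004588 to 1.01) CPM in mKate2 2, where rods held 1 UMI, and at 2.681 against 0 in Yap5SA 3. *H2-DMb1* passed the count filter of this fit only through its MG counts, so its call was favoured by that selection. DESeq2 kept *Cd74*, *H2-Ab1* and *H2-DMb1* and lost *H2-Aa*, *H2-Eb1* and *H2-DMa* (adjusted p = 0.3084, 0.3012 and 0.1599), so the last 3 calls depend on the test. Over both libraries the MG and rod levels did not overlap for *H2-DMa* and *H2-DMb1* and overlapped for the other 4 genes, whereas 80.1% of all genes did not overlap.

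The balance between *H2-Ab1* and *Cd74* differed between MGs and myeloid cells. *H2-Ab1* made up 23.31%, 22.04%, 24.14% and 23.67% of the *H2-Ab1* and *Cd74* UMIs of myeloid cells. In MGs it made up 52.78% (exact 95% interval 35.49% to 69.59%), 37.86% (35.95% to 39.8%), 50.96% (48.41% to 53.5%) and 42.5% (27.04% to 59.11%). In each of the 4 libraries the MG share was higher and its interval lay above the myeloid one, whose highest upper bound was 24.67%. Cells that reached no class limit were at 30.05%, 19.25%, 26.31% and 32.17%. In Yap5SA 3 their interval (28.35% to 36.17%) lay within that of MGs. Microglia-marked cells were at 20.65%, 19.81% and 24.93% in mKate2 2, Yap5SA 1 and Yap5SA 3. The last had an interval (22.42% to 27.58%) that overlapped that of MGs. In mKate2 2 the share was 23.33% (15.06% to 33.43%) in rods and 21.45% (16.96% to 26.51%) in bipolar cells, or 29.17% (19.05% to 41.07%) in bipolar cells without the 1 that held most of their class II UMIs, an interval that overlaps those of both myeloid cells and MGs. A few MG barcodes carried many class II UMIs, and leaving out the 6 of mKate2 2 and 2 of Yap5SA 1 with 100 or more gave 45.37% (42.88% to 47.89%) and 50.57% (47.92% to 53.21%). Leaving out the 105 and 100 MGs with 5 or more gave 50.73% (46.92% to 54.53%) and 63.24% (56.97% to 69.19%). These cells were left out by their own class II count, of which both genes are a part, and the source of the MG signal was not tested. The UMIs of *Cd74*, *H2-Aa*, *H2-Ab1* and *H2-Eb1* per UMI of the 10 other myeloid genes were 1.897, 6.595, 20.3 and 0.4563 in MGs and 5.388, 3.917, 6.884 and 2.353 in myeloid cells, higher in MGs in mKate2 2 and Yap5SA 1 and lower in the others. Without the MGs of 5 or more class II UMIs the values of mKate2 2 and Yap5SA 1 fell to 3.11 and 5.649, below their myeloid cells. That selection removes the UMIs above the line of this ratio, and myeloid cells were not trimmed. The fall was thus built in and says nothing of the source. The border macrophage-marked cells of mKate2 2, at 7.401, also stood above its MGs.

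**Figure D3:**
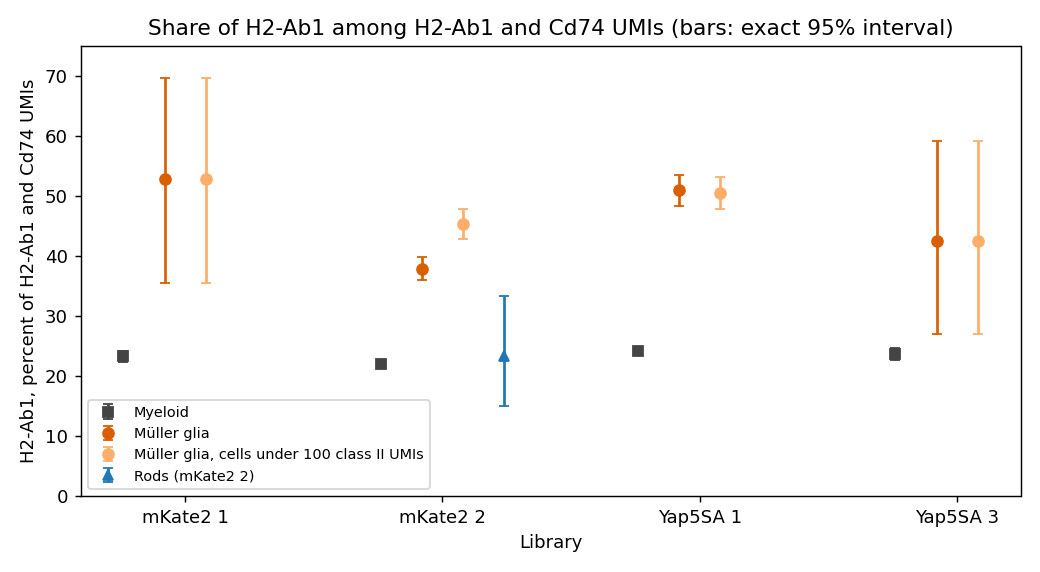
*H2-Ab1* as a percentage of *H2-Ab1* and *Cd74* UMIs in each library, by class, with exact 95% binomial intervals. Myeloid points lie between 22.04% and 24.14%, and MG points between 37.86% and 52.78%.

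The class II signal of MGs was spread over a minority of cells. No MG of mKate2 1 or Yap5SA 3 had 5 or more class II UMIs (highest 4 and 3), whereas 105 of 2863 in mKate2 2 and 100 of 801 in Yap5SA 1 did, with highest counts of 349 and 135. Of the 100 such cells of Yap5SA 1, 79% (69.71% to 86.51%) had a tdTomato UMI, against 65.04% of all its MGs. Median depths were 20910 and 10772 UMIs, and these shares were not thinned. After thinning, 3.028%, 19.5%, 20.06% and 2.796% of MGs and 82.61%, 87.89%, 98.37% and 84.91% of myeloid cells had a class II UMI. Myeloid cells were at 88.45 ± 6.964% and MGs at 11.34 ± 9.741% (SD, n = 4 libraries), a difference of 77.1 percentage points. The exact sign-flip permutation test over the 4 libraries gave a two-sided p of 0.125, the smallest it allows.

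Other immune genes in MGs followed the same split of libraries. The 10 MHC class I genes summed to 882.4, 2303, 2104 and 830.2 CPM and the 20 interferon-γ response genes to 1029, 2022, 1908 and 1145, so both were high where the class II genes were high. T and NK cells made up 0.05967%, 0.6386%, 0.7105% and 0.04329% of the cells, again highest in mKate2 2 and Yap5SA 1. Myeloid cells, the class richest in class II UMIs, made up 1.611%, 16.37%, 12.34% and 2.771% of the cells. Border macrophage-marked cells made up 0.716%, 6.777%, 7.46% and 1.212%. Both shares were thus also highest in mKate2 2 and Yap5SA 1. In the MGs themselves the 5 T and NK cell markers were at 0.931, 10.53, 1.36 and 0.6383 CPM, the 7 homeostatic microglia markers at 11.76, 11.46, 12.86 and 9.702 and the 8 border macrophage markers at 0.3385, 2.947, 2.092 and 1.277. Border macrophage markers were thus also highest in the 2 high libraries, and homeostatic microglia markers were nearly level. The part of any of these in the class II levels of MGs was not tested.

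**Figure D4:**
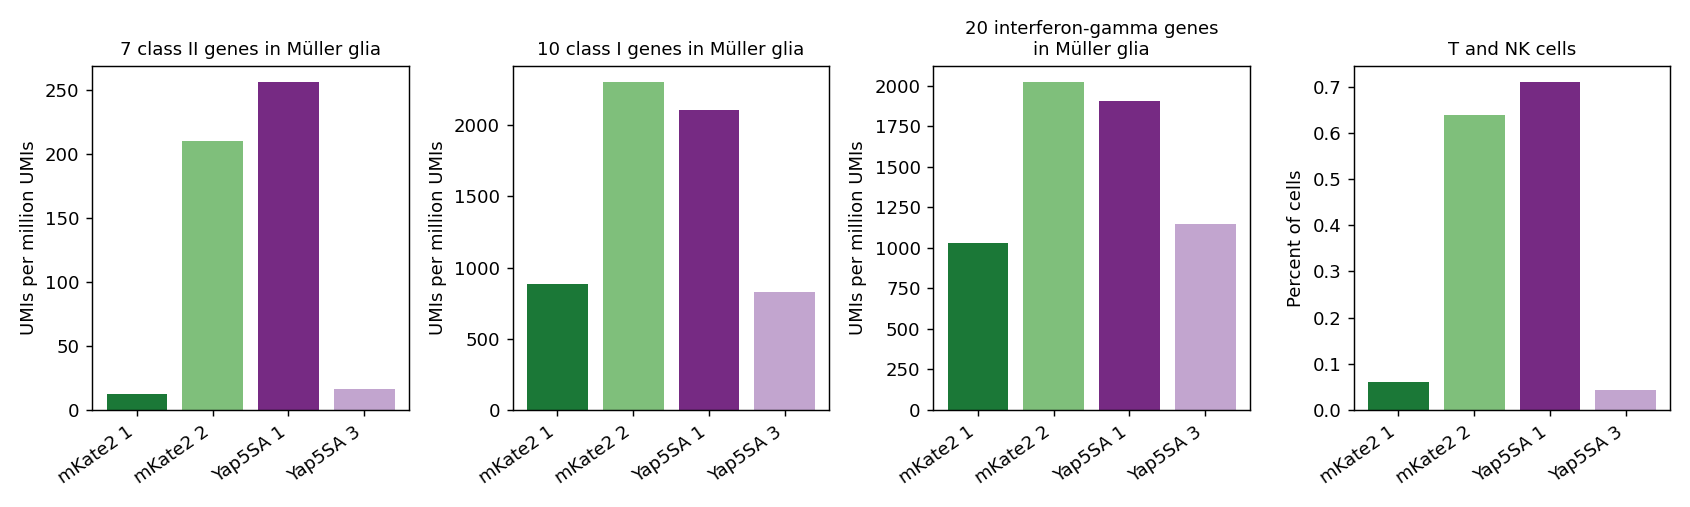
Bars give, for each library, the summed level in MGs of the 7 class II genes, the MHC class I list and the interferon-γ response list (CPM), and the share of T and NK cells (percent of cells). In each panel mKate2 2 and Yap5SA 1 are the higher pair, at 210 and 256.4 CPM for class II against 12.61 and 16.21.

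Within libraries, MGs with a UMI of *Cd74*, *H2-Aa*, *H2-Ab1* or *H2-Eb1* after thinning were set against those without, a comparison added after the values were seen. Cells with UMIs of the loaders or *Ciita* only are among those without. It used mKate2 1, mKate2 2 and Yap5SA 1 (15, 333 and 112 cells with, 1174, 1662 and 596 without), since Yap5SA 3 had only 7 cells with. Class I genes summed to 533.3, 3492 and 3598 CPM with such a UMI and to 773, 2124 and 1499 without, so they were higher in mKate2 2 and Yap5SA 1 and lower in mKate2 1. With the genes that chose the cells left out, 0.389% of 8999 genes passed, 0.3% as higher and 0.0889% as lower, and 6.58% did not overlap between the sets of cells. Of 10 class I genes 5 passed as higher, among them *B2m*, the light chain of class I (log2 fold change 0.88, adjusted p = 1.394e-06), and *H2-Q7* (1.71, adjusted p = 0.002085). Of 18 interferon-γ response genes 3 passed, *Cxcl10* (1.64, adjusted p = 8.858e-09), *Gbp2* (1.33, adjusted p = 5.552e-08) and *Igtp* (0.96, adjusted p = 0.01272). The levels of these 8 genes overlapped between the sets of cells over the 3 libraries. The loaders *H2-DMa* (1.41, adjusted p = 0.345) and *H2-DMb1* (1.69, adjusted p = 0.123) did not pass. *Gfap*, a gene of reactive glia, passed as 1 of 3 astrocyte markers tested (0.80, adjusted p = 0.02765). No class I gene passed with DESeq2, without mKate2 2 or without Yap5SA 1. With DESeq2 *Cxcl10*, *Gbp2*, *Igtp* and *Gfap* were also lost (adjusted p = 0.2903, 0.2903, 0.9992 and 0.9992). *Cxcl10* held without each single library, *Gbp2* was lost without Yap5SA 1 (adjusted p = 0.8945), and *Igtp* and *Gfap* were lost without any one of the 3 (adjusted p = 0.08893 to 0.9995). Genes of the myeloid limit were at 33.33, 75.08 and 17.86 CPM in the cells with such a UMI and at 2.981, 30.08 and 9.228 in those without. These values were capped, since MGs that reached the myeloid limit had been set apart, and 33.33 rested on 1 UMI. The 10 myeloid genes outside the limit were at 0, 25.53 and 53.57 CPM with such a UMI and at 0.4259, 11.43 and 10.07 without. They were thus higher in mKate2 2 and Yap5SA 1 but not in mKate2 1. The part of either list in the difference was not tested.

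Class II genes were not found to differ between *Yap5SA* and *mKate2* AAV. In myeloid cells *Cd74* stood at 17491 and 17219 CPM with *mKate2* AAV and at 21160 and 10386 with *Yap5SA* AAV, and the groups overlapped for each of the 7 genes. In the fit of 8725 genes 0% passed (0 genes, 153 at an unadjusted p under 0.05 and 3 with DESeq2). Log2 fold changes were -0.22 ± 0.338 (SE) for *Cd74*, -0.18 ± 0.372 for *H2-Aa*, -0.11 ± 0.372 for *H2-Ab1* and -0.03 ± 0.426 for *H2-Eb1*, with an adjusted p of 0.9993 for each. *H2-DMa* gave 0.10 ± 0.382, *H2-DMb1* -0.48 ± 0.454 and *Ciita* 0.96 ± 1.055, at the same adjusted p. Leaving out single libraries moved *Cd74* between -0.73 and 0.12, so a modest difference in either direction would not have been detected.

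In MGs the AAV comparison rested on groups that each held 1 high and 1 low library. *Cd74* was at 1.439 and 84.64 CPM with *mKate2* AAV and at 77.81 and 2.936 with *Yap5SA* AAV, an overlap shared by the other 5 genes tested. Of 15212 genes 0% passed (0 genes, 31 at an unadjusted p under 0.05 and 0 with DESeq2). The log2 fold changes were -0.32 ± 1.986 (SE) for *Cd74*, -0.09 ± 2.086 for *H2-Aa*, 0.42 ± 1.931 for *H2-Ab1* and -0.04 ± 1.914 for *H2-Eb1*, each with an adjusted p of 0.9999. *H2-DMa* and *H2-DMb1* gave 0.45 ± 0.689 and 0.55 ± 1.172. Leaving out single libraries moved *Cd74* from -4.04 to 4.79, so its direction was set by which libraries were compared. Within the libraries of Cell Ranger 8.0.0 (mKate2 1 and Yap5SA 1) it was higher with *Yap5SA* AAV, and within those of 9.0.1 (mKate2 2 and Yap5SA 3) lower.

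The share of thinned cells with a class II UMI also overlapped between the AAV groups. In myeloid cells it was 85.25 ± 3.738% with *mKate2* AAV and 91.64 ± 9.524% with *Yap5SA* AAV (SD, n = 2 libraries each), with a two-sided p of 0.6667 in the exact permutation test. In MGs it was 11.26 ± 11.65% and 11.43 ± 12.21%, with a two-sided p of 1 in the same exact test. With 2 libraries against 2 this test cannot give less than 0.3333. The difference of the AAV effect between myeloid cells and MGs passed for 2 of 16193 genes (0.0124%) and for none of the 7, each at an adjusted p of 1. Without mKate2 2 it passed for *Cd74* (-3.76, adjusted p = 0.02982), *H2-Aa* (-3.76, 0.03502), *H2-Ab1* (-3.44, 0.02658) and *H2-DMb1* (-2.93, 0.01805), the comparison then resting on mKate2 1 alone as control.

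**Figure D5:**
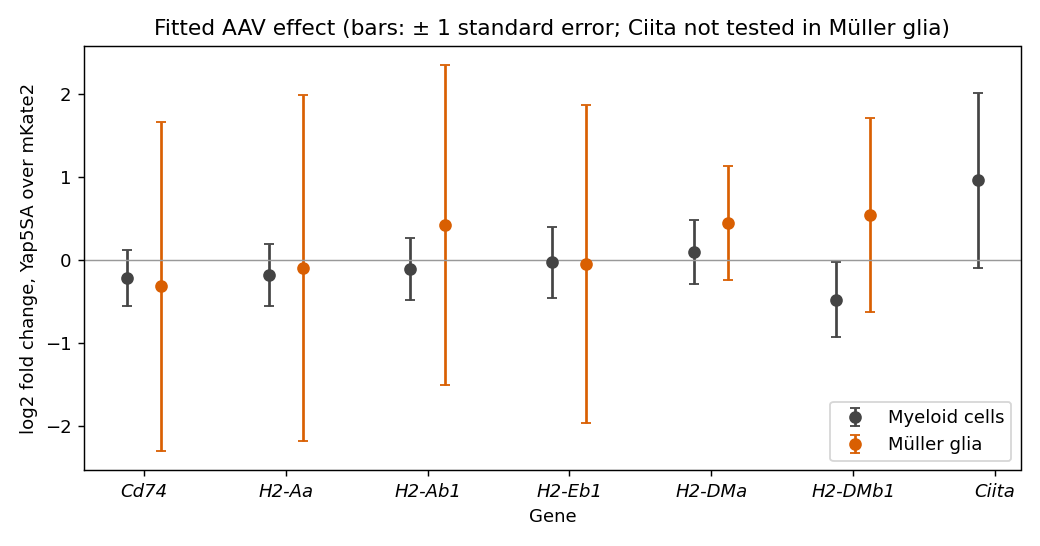
Fitted log2 fold change of *Yap5SA* over *mKate2* AAV for each gene in myeloid cells and in MGs, with bars of 1 standard error. All 7 myeloid values lie between -0.48 and 0.96, and the MG bars of *Cd74* and the 3 chains are several times wider than the myeloid ones.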

How the data were processed

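Retinal cells were sorted and captured with 10x Genomics chemistry. The authors deposited UMI counts per gene and called cell for each library, aligned to GRCm39 with Cell Ranger (8.0.0 in the submitters' processing notes; the file headers give 9.0.1 for mKate2 2 and Yap5SA 3). A tdTomato count, present in 3 of the 5 tables, was kept out of library totals. Cells needed at least 1000 UMIs and at most 15% mitochondrial UMIs, leaving 1676, 5637, 1126 and 2310. Cells over both the myeloid and the MG limit (2, 35, 2 and 0) were set apart, and no doublet caller was run. Other classes were set by marker lists at limits chosen after values were seen.

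Counts were summed per library and class and tested with edgeR 4.0.16 (TMM, filterByExpr, quasi-likelihood, Benjamini-Hochberg over all genes tested, library as a block between classes, none between AAVs). Alternatives used DESeq2 1.42.0, other filters and cell limits, Cell Ranger version as a term, and left out libraries. Shares of cells used 2000 random UMIs per cell, and cells with fewer UMIs were left out of them. The fits were tested on simulated counts. Other software was R 4.3.3, Python 3.11.15, NumPy 2.4.6, pandas 2.3.3, SciPy 1.17.1 and matplotlib 3.10.9.

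The 7 genes, the marker lists and the motif letters were chosen with earlier results or the sequences known. Named genes are the 7, list examples with high or low fold changes, and the 5 genes most correlated with the class II sum. *Rfx5*, *Rfxap*, *Rfxank*, *Nfya* and *Nfyb* were named for their role at the promoter boxes, and *Sparc*, *Ctsd*, *P2ry12* and *Gfap* after their values were seen.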

Additional observations from a re-analysis of the deposited data

How the results depend on the processing

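No paired analysis was possible because the AAV groups share only replicate number 1 once Yap5SA 2 is left out. The Cell Ranger version, which joins mKate2 1 with Yap5SA 1 and mKate2 2 with Yap5SA 3, was fitted as a term instead. The direction and call of all 7 genes in myeloid cells over MGs held under every alternative tried. MGs over rods called 3 of the 7 genes with DESeq2 and could not be fitted without a library. Genes called between border macrophage- and microglia-marked cells (275) became 633 without the count filter and 146 to 424 without single libraries. For *Yap5SA* over *mKate2* AAV in myeloid cells 3 genes were called with DESeq2, 51 without the filter, 2 with the Cell Ranger version as a term and 8 to 108 without single libraries. For the difference of the AAV effect between classes 1 gene was called with DESeq2, 5 at 2000 UMIs per cell, 7 without the top 5% of cells, 5 with cells over both limits in each class, 1 with Yap5SA 2 in place of Yap5SA 1 and 1 to 205 without single libraries, where 0 to 4 of the 7 genes passed. MGs with over without a class II UMI called 35 genes, 2 with DESeq2 and 7 to 17 without single libraries, and of the class I genes 0 with DESeq2 and 0 to 3 without single libraries. The *H2-Ab1* share of MGs moved to 45.37% and 50.73% in mKate2 2 and to 63.24% in Yap5SA 1 when class II-rich cells were left out.

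Of 645 alternative values 53 changed sign, 46 of them among the 226 fold changes of *Yap5SA* over *mKate2* AAV and their difference between classes. Without single libraries the myeloid AAV values ranged from -0.73 to 0.12 (*Cd74*), -0.74 to 0.17 (*H2-Aa*), -0.65 to 0.24 (*H2-Ab1*), -0.75 to 0.41 (*H2-Eb1*), -0.20 to 0.29 (*H2-DMa*) and -2.70 to 1.76 (*Ciita*). In MGs they ranged from -4.04 to 4.79 (*Cd74*), -5.26 to 4.81 (*H2-Aa*), -3.78 to 4.67 (*H2-Ab1*), -4.82 to 3.73 (*H2-Eb1*), -0.53 to 1.17 (*H2-DMa*) and -1.15 to 2.55 (*H2-DMb1*). Their difference ranged from -3.76 to 2.09 (*Cd74*), -3.76 to 2.77 (*H2-Aa*), -3.44 to 1.65 (*H2-Ab1*), -2.71 to 2.73 (*H2-Eb1*), -0.94 to 0.20 (*H2-DMa*), -2.93 to 0.24 (*H2-DMb1*) and -6.02 to 0.0583 (*Ciita*). *Tapbp* in MGs with over without a class II UMI ranged from -0.23 to 0.95. Without the top 5% of cells the myeloid AAV value was 0.0626 for *H2-Ab1* and 0.25 for *H2-Eb1*, the MG value 0.21 for *Cd74*, 0.25 for *H2-Aa* and 0.37 for *H2-Eb1*, and the difference for *H2-Eb1* -0.0599. With cells over both limits in each class the myeloid value of *H2-Eb1* was 0.0839, the MG value of *H2-Ab1* -0.10, and the difference 1.75 for *Cd74*, 1.67 for *H2-Aa* and 0.85 for *H2-Ab1*. A myeloid limit of 1% gave 0.26 for *H2-Aa* and 0.25 for *H2-Eb1* in MGs, and the Cell Ranger term 0.26 for *Cd74* and 0.0720 for *H2-Aa*. The AAV difference in the share of cells with a class II UMI ranged from -0.35 to 13.1 points in myeloid cells and -8.47 to 8.79 in MGs without single libraries. In MGs it was -0.20 with cells over both limits in each class, -0.25 without the top 5% of cells and -1.15 with Yap5SA 2. The causes were not tested.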

Other observations

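Class II transcripts were also abundant in a few cells that passed neither the myeloid nor the MG limit. Cells outside both classes with at least 1% of UMIs from the 7 genes numbered 2, 5, 10 and 1 in mKate2 1, mKate2 2, Yap5SA 1 and Yap5SA 3. The 7 genes supplied 2.251%, 3.927%, 3.48% and 9.588% of their summed UMIs, while genes of the myeloid limit supplied 0.2363%, 0.1226%, 0.1744% and 0.11%. A UMI of the 12 monocyte and dendritic cell genes was present in 1, 4, 8 and 1 of them. *Ccr7*, the chemokine receptor of migrating dendritic cells, was found in 1 of the cells of mKate2 2 and 1 of those of Yap5SA 1, and B cell genes in 1 cell of mKate2 2. With so few cells per library no comparison was made.
In the T and NK cells of Yap5SA 1 (8 cells) the 7 genes together stood at 1739 CPM, of which 1 cell held 117 of 134 UMIs, leaving 259 CPM without it, and in those of mKate2 2 (36 cells) at 88.44. The B cell list was low in myeloid cells, at 20, 11.39, 7.275 and 7.606 CPM, although B cells are themselves known to express class II.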
